A study of Homo sapiens with 3 samples.

Results

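ERINA and 7 long noncoding RNAs (lncRNAs) that are known from breast and other cancers were followed through knockdown of ERINA in T47D cells. The 7 were DSCAM-AS1, MALAT1, NEAT1, HOTAIR, H19, TUG1 and GATA3-AS1, and all 8 were picked by gene name. ERINA is listed in the deposited table as LINC00992, the symbol under which RefSeq gives ERINA as a synonym. The names matched 9 of 58039 gene rows, because MALAT1 names a pair of rows. One of these is the gene itself and the other a 95-nt conserved piece inside it, which was listed at 0 in every library. All 8 genes were above 0 in every library, and all 8 reached the mean of at least 1 FPKM over the 3 libraries that was asked of the 13112 genes tested.

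T47D is a human breast cancer cell line of luminal type that expresses the estrogen receptor. The tested cells were T47D cells stably carrying a short hairpin RNA against ERINA, 1 library with shRNA1 and 1 library with shRNA2. They were set against 1 control library of the same line. The hairpins came in lentivirus and infected cells were selected with puromycin. The control is called a control hairpin in its description, whereas its hairpin label reads None, so which of these the control cells carried is not settled here. No condition has a repeat library, and nothing in the sources used here gives the hairpin sequences, the library kit or the use of strand in counting.

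A lncRNA acts without being translated, and its level depends on its own transcription and decay, so each is read here as an RNA abundance and nothing more. ERINA is described in the title of the study's paper as an estrogen-responsive lncRNA that acts through the E2F1 and RB1 pathway. DSCAM-AS1 is induced through the estrogen receptor in luminal breast cancer, and GATA3-AS1 is transcribed divergently from GATA3, the gene of a luminal transcription factor. HOTAIR, from the HOXC cluster, was reported to bind the Polycomb complex PRC2, and H19 is an imprinted RNA beside IGF2 that hosts the microRNA miR-675. MALAT1 sits in nuclear speckles, NEAT1 is the scaffold RNA of paraspeckles, and TUG1 is a broadly expressed nuclear and cytoplasmic RNA that starts next to MORC2.

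The sequences at which these genes start differed widely in base composition. Promoter windows, 250 bases before to 50 bases after the gene start, came from RefSeq on GRCh38.p14, which held 5 of the 8 genes (ERINA, H19, TUG1, MALAT1 and GATA3-AS1) in 8 windows. DSCAM-AS1, NEAT1 and HOTAIR were not in that table. Windows of the 3 genes that were lower in both hairpin libraries by the largest amounts on a log2 scale are shown, on their own strand, with every CpG dinucleotide in capitals.
ERINA, chr5:117415262-117415561, plus strand: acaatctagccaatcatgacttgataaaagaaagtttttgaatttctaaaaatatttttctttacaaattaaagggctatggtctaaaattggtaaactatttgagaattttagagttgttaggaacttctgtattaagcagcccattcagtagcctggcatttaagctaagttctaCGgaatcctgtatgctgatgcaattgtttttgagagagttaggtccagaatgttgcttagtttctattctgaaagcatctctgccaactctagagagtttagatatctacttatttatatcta
H19, chr11:2001217-2001516, minus strand: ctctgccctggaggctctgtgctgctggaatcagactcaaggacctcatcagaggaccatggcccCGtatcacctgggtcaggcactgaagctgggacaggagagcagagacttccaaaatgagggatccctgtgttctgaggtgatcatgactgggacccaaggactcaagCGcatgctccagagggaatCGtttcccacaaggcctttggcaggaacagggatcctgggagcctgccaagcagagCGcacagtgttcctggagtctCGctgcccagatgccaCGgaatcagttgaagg
TUG1, chr22:30969015-30969314, plus strand: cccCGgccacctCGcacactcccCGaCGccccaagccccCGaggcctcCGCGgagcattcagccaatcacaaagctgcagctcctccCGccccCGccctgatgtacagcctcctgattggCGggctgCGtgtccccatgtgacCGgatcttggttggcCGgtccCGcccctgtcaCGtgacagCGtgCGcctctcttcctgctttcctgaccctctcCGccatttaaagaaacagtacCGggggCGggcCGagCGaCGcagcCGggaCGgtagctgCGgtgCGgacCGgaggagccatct
The ERINA window had 1 CpG and 32.33% G and C. The H19 window had 6 CpGs and 57.67% G and C, and the TUG1 window 28 CpGs and 67.67%. The median over all 35116 RefSeq windows was 14 CpGs and 58.67%. The 3 GATA3-AS1 windows held 33, 36 and 37 CpGs, and the MALAT1 windows 37 and 14. ERINA had the window poorest in CpG of the 8. It lies at the start of the annotated ERINA transcript of 564 nt. The other ERINA transcript, of 617 nt, starts 39.75 kb further on and has no window here.

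Letters of 4 factor motifs were searched on both strands of the 8 windows. The estrogen response element half-site AGGTCA, which 13.831% of all windows hold, was in none of them. Neither were the E2F core letters TTTGGCG or TTTCGCG (3.189% of all windows), the forkhead letters TGTTTAC (3.423%) or the full palindromic estrogen response element (0.057%). The palindromic element was searched as 2 inverted copies of the shorter GGTCA. A match to it need not hold AGGTCA, though the searches share letters. The counts describe only these letters in these windows.

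ERINA itself, ENSG00000248663, covers chr5:117415509-117546298 on the plus strand of GRCh38 and is annotated in GENCODE release 29 as an intergenic lncRNA with 2 transcripts of 617 and 564 nt. The transcripts share exactly 1 exon of 37 bases, chr5:117471902-117471938, shown because a probe or hairpin against it alone could reach both transcripts.
Exon shared by both ERINA transcripts: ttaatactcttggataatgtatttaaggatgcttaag
The remaining exons are separate. The 617-nt transcript has 3 exons of 192, 37 and 388 nt, and the 564-nt transcript has 4 exons of 231, 96, 37 and 200 nt. Which exons the hairpins target was not analysed here, and the deposited value sums the gene, so a change of 1 transcript cannot be told apart from a change of both.

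ERINA was far lower in both hairpin libraries. Cells with shRNA1 had 5.21 FPKM (deposited confidence interval 2.09 to 8.34) and cells with shRNA2 had 8.91 FPKM (4.04 to 13.8), against 63.4 FPKM in the control (38.4 to 88.5). FPKM scales fragments to transcript length and to library size, so levels can be set against each other across genes. The hairpin libraries kept 8.22% and 14.0% of the control level, and neither interval reached that of the control. The intervals of the hairpin libraries overlapped each other, with shRNA2 1.71 times shRNA1. ERINA was the single gene of the 8 whose intervals in both hairpin libraries lay clear below the control interval, as 0.221% of tested genes did. None of the 8 lay clear above it, against 0.0839% of tested genes.

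The test for knockdown against control was limma on log2(FPKM + 0.5), a scale that understates the change of low genes, with Benjamini-Hochberg adjustment over all 13112 tested genes. With 2 hairpin libraries and 1 control only 1 residual degree of freedom remains, and the control is assumed to vary like the hairpin libraries. ERINA was lower by −3.12 on that scale (SE 0.33), with an adjusted p of 0.0816, which misses the threshold of 0.05. When the 294 tested genes with no transcript of 300 nt or more were left out, the limma adjusted p was 0.00336. Of the tested genes, 35 had a larger decrease than ERINA, among them RP11-78O7.3 and SCARNA2, 2 genes counted as lncRNA by annotated type alone. Among the 813 tested lncRNA genes ordered by level, ERINA stood at place 204 with shRNA1, 118 with shRNA2 and 19 in the control.

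**Figure D1:**
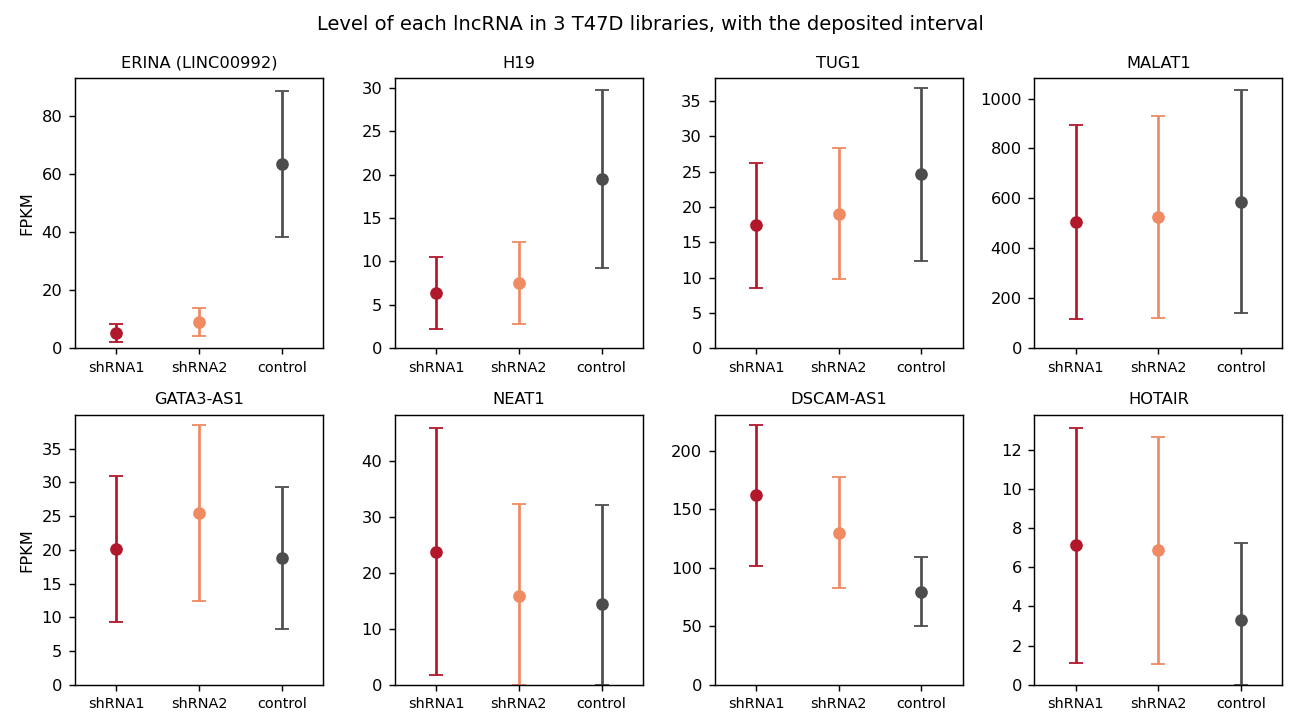
FPKM (vertical axis, linear, each panel on its own scale from 0) of the 8 lncRNAs in the shRNA1, shRNA2 and control libraries, 1 library each; points are deposited values and bars the deposited confidence intervals. ERINA at 5.21 and 8.91 FPKM in the hairpin libraries lies clear of its control interval of 38.4 to 88.5, and every other panel has overlapping bars.

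Over the 8 genes, the other 7 were split in direction. H19, TUG1 and MALAT1 were below the control in both hairpin libraries, as ERINA was, and DSCAM-AS1, HOTAIR, NEAT1 and GATA3-AS1 were above it in both. That is 4 lower and 4 higher, against 42.6% of tested genes below the control in both hairpin libraries and 42.4% above it in both. Without ERINA, the target of the hairpins, it is 3 lower and 4 higher. No gene of the 8 passed limma with Benjamini-Hochberg adjustment, which called 0.267% of tested genes lower and 0.0839% higher. Before adjustment, 3 of the 8 (ERINA, H19 and TUG1) were lower at the threshold of 0.05, as 15.9% of tested genes were, and 2 (DSCAM-AS1 and HOTAIR) were higher, as 13.7% were. With the short genes left out, limma passed these same 3 as lower (9.88% of 12818 genes) and these same 2 as higher (7.37%). Both counts of 3 include ERINA, the target of the hairpins, and among the other 7 only H19 and TUG1 were called lower. ERINA, H19, DSCAM-AS1 and HOTAIR also passed with the short genes kept when limma was run as a robust fit or on libraries set to equal medians, so their calls depend on the form of the fit.

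The median log2 change of the 8 genes was 0.04, beside 0.0005 over all tested genes and 0.25 over the 813 tested lncRNA genes. Without ERINA, the target of the hairpins, the median was 0.26, near that of the tested lncRNA genes. Tested lncRNA genes as a class were more often above the control, with 496 above it in both hairpin libraries and 185 below it in both. Apart from ERINA, which the hairpins target, the 3 genes that were lower thus stood on the less populated side of their class. The whole set of 8 summed to 748 FPKM with shRNA1 and 739 FPKM with shRNA2, against 810 FPKM in the control, of which MALAT1 alone made up 67.65%, 71.04% and 72.4%.

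H19 had the largest decrease of the 8 genes after ERINA. H19, ENSG00000130600, lies at chr11:1995176-2001470 on the minus strand. Its level was 6.34 FPKM in cells with shRNA1 (2.16 to 10.5) and 7.53 FPKM in cells with shRNA2 (2.83 to 12.2), against 19.5 FPKM in the control (9.20 to 29.7). Both hairpin libraries were low and close to each other, but the upper ends of their intervals reached into the control interval. The log2 change was −1.54 with shRNA1 and −1.31 with shRNA2, and −1.43 in limma (SE 0.15, Benjamini-Hochberg adjusted p 0.0816). The limma adjusted p was 0.00408 without the short genes. Among tested genes counted as lncRNA by annotated type, 4 had a larger mean decrease, ERINA and SCARNA2 among them.

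H19 RNA is the source of miR-675, whose 73-base hairpin at chr11:1996759-1996831 lies in the first exon of 4 of the 12 annotated H19 transcripts. Its mature forms, from RefSeq on GRCh38.p14, are shown with the seed, bases 2 to 8, in capitals, because they are the product through which H19 can act on other RNAs.
hsa-miR-675-5p: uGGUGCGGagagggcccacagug
hsa-miR-675-3p: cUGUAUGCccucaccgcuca
The seeds differ, so the arms would pair with different sites. MIR675 itself was not analysed here.

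IGF2 and CDKN1C, imprinted genes on the chromosome of H19, were also lower in both hairpin libraries, and neither passed limma as reported. IGF2, the growth factor gene imprinted in the opposite parental sense, lies 127.6 kb away. It had 0.699 and 0.860 FPKM with the hairpins, against 1.58 FPKM in the control. Its limma log2 change was −0.70 (adjusted p 0.144, and 0.0870 without the short genes). CDKN1C, which encodes a cyclin-dependent kinase inhibitor and lies 881.7 kb away, had 0.299 and 0.739 FPKM with the hairpins, against 2.32 FPKM in the control. Its limma change was −1.502 (Benjamini-Hochberg adjusted p 0.102, and 0.0216 without the short genes). The fit without the short genes passed 9.88% of 12818 genes as lower. MRPL23, a mitochondrial ribosomal protein gene 10.65 kb away on the other side, was below the mean level required for testing, with 0.193 and 0.267 FPKM, against 0.707 FPKM in the control. All 3 neighbours were far below H19 in level in every library.

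DSCAM-AS1, the estrogen receptor-linked RNA, was the second most abundant of the 8 and was higher with both hairpins. DSCAM-AS1, ENSG00000235123, is annotated at chr21:40383083-40385358 on the plus strand, inside DSCAM on the opposite strand. Its level was 162 FPKM in cells with shRNA1 (102 to 222) and 130 FPKM in cells with shRNA2 (82.5 to 178), against 79.7 FPKM in the control (49.997 to 109). The level was 2.03 times the control with shRNA1 and 1.63 times with shRNA2, and both hairpin intervals overlapped that of the control. The limma log2 change was 0.86 (SE 0.16, Benjamini-Hochberg adjusted p 0.0877, and 0.0098 without the short genes).

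DSCAM, which encodes a neuronal adhesion molecule, was listed at 5.98 and 4.86 FPKM with the hairpins, against 2.45 FPKM in the control. Its limma change was 1.00 (adjusted p 0.0877, and 0.0151 without the short genes), close to that of its antisense partner. The fit without the short genes passed 7.37% of 12818 genes as higher. Since the use of strand is not known, reads of DSCAM-AS1 and DSCAM cannot be told apart where they overlap. The nearest genes outside DSCAM stood on the other side of the control: PCP4, a calmodulin-binding protein gene, had 2.38 and 2.60 FPKM, against 4.58 FPKM in the control, and BACE2, a protease gene, had 39.4 and 40.0 FPKM, against 54.1 FPKM in the control. Their limma adjusted p-values were 0.0947 and 0.0891.

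GATA3-AS1, the other RNA tied to a luminal factor, was near its control level. GATA3-AS1, ENSG00000197308, lies at chr10:8050450-8053484 on the minus strand. It had 20.1 FPKM in cells with shRNA1 (9.24 to 30.9) and 25.4 FPKM in cells with shRNA2 (12.4 to 38.4), against 18.7 FPKM in the control (8.24 to 29.2). All 3 intervals overlapped. The limma log2 change was 0.26 (SE 0.17, Benjamini-Hochberg adjusted p 0.363), with 0.10 for shRNA1 and 0.43 for shRNA2. GATA3, which the annotation overlaps on the plus strand, had 39.0 and 40.0 FPKM, against 43.4 FPKM in the control. Its limma change was −0.14 (adjusted p 0.337, and 0.354 without the short genes). The pair lay on opposite sides of the control, each by little, and without strand their reads cannot be told apart in the overlap.

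HOTAIR was the least abundant of the 8 in the control, and it was higher with both hairpins. HOTAIR, ENSG00000228630, lies at chr12:53962308-53974956 on the minus strand, within the HOXC cluster. Its level was 7.11 FPKM in cells with shRNA1 (1.12 to 13.1) and 6.86 FPKM in cells with shRNA2 (1.08 to 12.6), against 3.29 FPKM in the control (0 to 7.22). The hairpin libraries were nearly equal, at 2.16 and 2.08 times the control, and all 3 intervals overlapped widely. The limma log2 change was 0.98 (SE 0.13), the largest increase of the 8, with a Benjamini-Hochberg adjusted p of 0.0829, or 0.0098 without the short genes.

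The HOXC genes on the opposite strand encode homeodomain transcription factors, and those tested next to HOTAIR were near or below their control level. HOXC11, whose annotation overlaps HOTAIR, had 5.79 and 6.24 FPKM with the hairpins, against 8.04 FPKM in the control. Its limma change was −0.39 (adjusted p 0.154, and 0.108 without the short genes). Since the use of strand is not known, reads of HOTAIR and HOXC11 cannot be told apart where they overlap. HOXC13 had 2.03 and 2.40 FPKM, against 4.83 FPKM in the control, a change of −0.98 (adjusted p 0.0877, and 0.0180 without the short genes). The fit without the short genes passed 9.88% of 12818 genes as lower. HOXC10 had 30.2 and 28.7 FPKM, against 28.0 FPKM in the control, a change of 0.07. HOXC12 was listed at 0.133 and 0.165 FPKM, against 0.172 FPKM in the control, below the level tested.

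**Figure D2:**
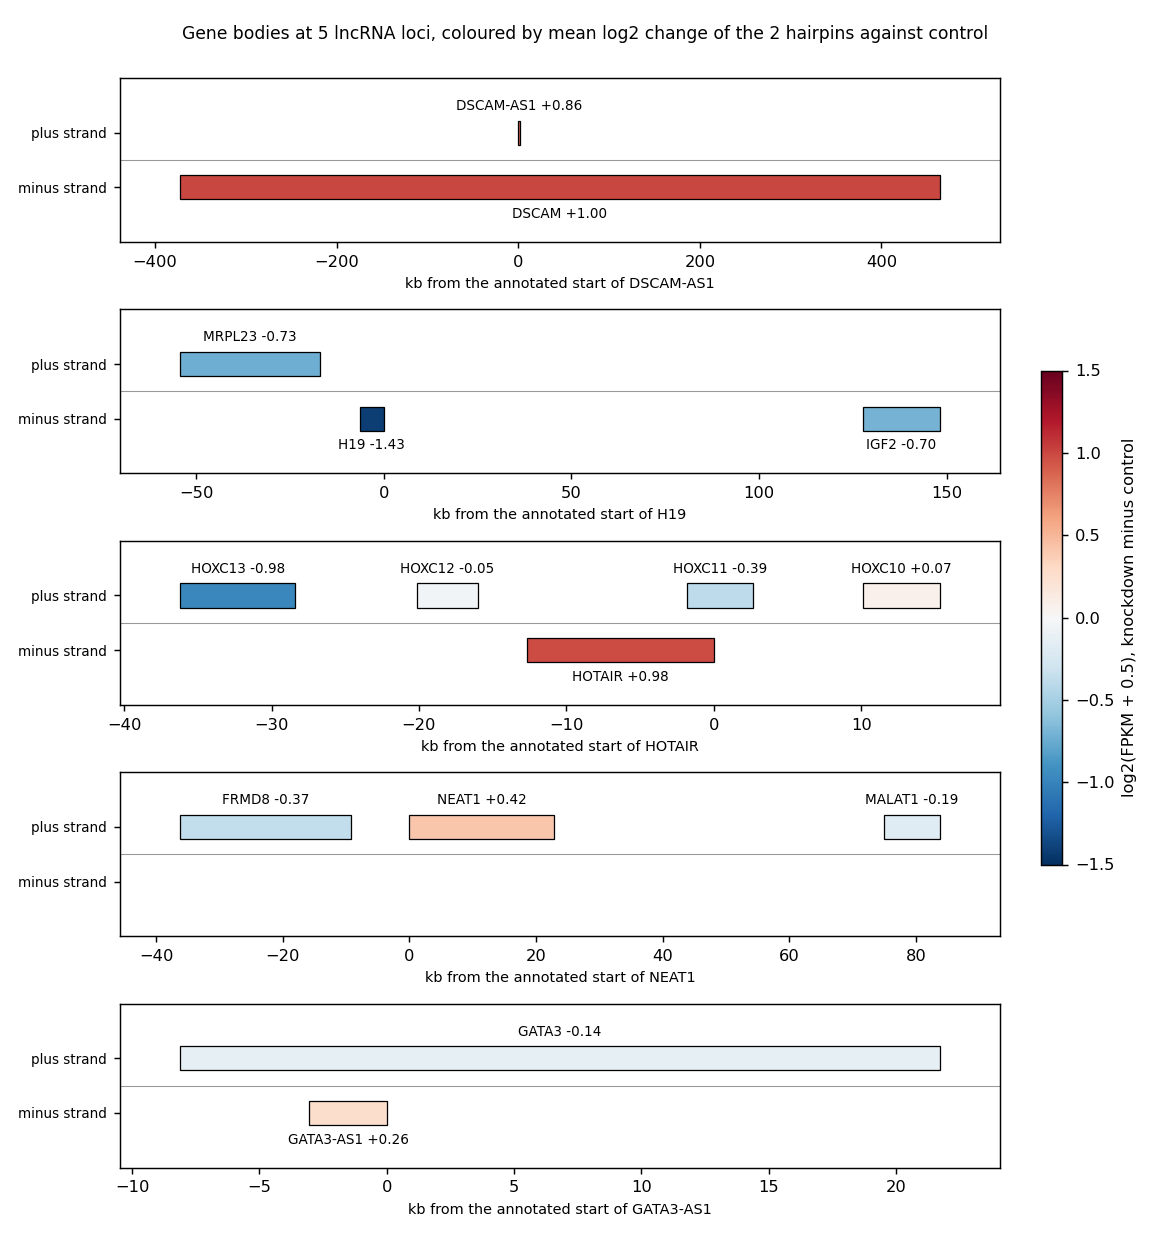
Gene bodies by strand at the DSCAM-AS1, H19, HOTAIR, NEAT1 with MALAT1, and GATA3-AS1 loci; the horizontal axis is distance in kb from the annotated start of the named lncRNA, and the colour and the number are the mean of the shRNA1 and shRNA2 changes against control on the log2(FPKM + 0.5) scale. DSCAM-AS1 and DSCAM carry 0.86 and 1.00, H19 and IGF2 −1.43 and −0.70, and HOTAIR at 0.98 lies opposite HOXC11 at −0.39; HOXC12 and MRPL23 were below the level tested. Reads where genes on opposite strands overlap cannot be told apart, because the use of strand is not known.

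MALAT1 and NEAT1 are neighbours on chromosome 11, with 52.15 kb between them, and their levels lay on opposite sides of the control by small amounts. MALAT1, ENSG00000251562, at chr11:65497688-65506516 on the plus strand, had 506 FPKM in cells with shRNA1 (118 to 895) and 525 FPKM in cells with shRNA2 (120 to 929), against 587 FPKM in the control (139 to 1035). Its limma log2 change was −0.19 (SE 0.087, Benjamini-Hochberg adjusted p 0.240). It was among the 4 highest tested lncRNA genes in each library, with intervals so wide that all 3 nearly coincide.

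NEAT1, ENSG00000245532, at chr11:65422774-65445540 on the plus strand, had 23.8 FPKM in cells with shRNA1 (1.67 to 46.0) and 16.0 FPKM in cells with shRNA2 (0 to 32.4), against 14.5 FPKM in the control (0 to 32.1). The limma change was 0.42 (SE 0.26, adjusted p 0.347), with 0.70 for shRNA1 and 0.14 for shRNA2, so 1 hairpin library carried most of the difference. The gene value covers transcripts of up to 22743 nt, and the short and long NEAT1 forms were not measured separately. Of the genes around the pair, FRMD8 had a limma change of −0.37 with an adjusted p of 0.125, and LTBP3 had 0.17 with 0.286. Without the short genes, their limma adjusted p-values were 0.0774 and 0.3005.

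MALAT1 and NEAT1 share a way of ending, in which RNase P cuts before a tRNA-like fold and ELAC2 trims the small RNA released. The annotated genes of these small RNAs are shown, from GENCODE release 29 on GRCh38, because this ending is what the neighbours are known to have in common.
mascRNA-menRNA at MALAT1, chr11:65506117-65506173: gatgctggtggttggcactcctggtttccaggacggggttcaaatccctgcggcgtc
mascRNA-menRNA at NEAT1, chr11:65445541-65445598: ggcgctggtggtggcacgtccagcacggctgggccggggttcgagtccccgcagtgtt
They have 57 and 58 bases, both on the plus strand, and were identical at 41 of 61 aligned columns (67.21%). Both were listed at 0 in all 3 libraries, and whether the library preparation kept RNAs this short is not given in the sources used here. ELAC2 had 36.3 and 31.9 FPKM with the hairpins, against 37.8 FPKM in the control (limma adjusted p 0.430, and 0.387 without the short genes).

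Short annotated pieces that overlap these lncRNAs have rows of their own in the table, 15 of them in all, of 57 to 237 nt, and 13 were listed at 0 in every library. NEAT1_2, a 105-nt piece of NEAT1 and not its long form, was listed at 0 with both hairpins and at 14.5 FPKM in the control, with a deposited interval of 0 to 651 there. It passed limma (Benjamini-Hochberg adjusted p 0.0140), although its interval spans both hairpin values. TUG1_1, a 145-nt piece, was at 3.45 FPKM with shRNA1, 0 with shRNA2 and 0 in the control. Values of such short pieces were not read as levels of the genes that hold them.

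TUG1 was slightly lower with both hairpins. TUG1, ENSG00000253352, at chr22:30969245-30979395 on the plus strand, had 17.4 FPKM in cells with shRNA1 (8.59 to 26.3) and 19.05 FPKM in cells with shRNA2 (9.73 to 28.4), against 24.6 FPKM in the control (12.4 to 36.8). The hairpin libraries kept 70.8% and 77.4% of the control level, and all 3 intervals overlapped. The limma log2 change was −0.42 (SE 0.11, Benjamini-Hochberg adjusted p 0.111, and 0.0461 without the short genes). MORC2, a chromatin ATPase gene that starts 0.947 kb away on the opposite strand, had 7.51 and 7.13 FPKM with the hairpins, against 6.61 FPKM in the control. Its limma change was 0.14 (adjusted p 0.488, and 0.531 without the short genes). SMTN, the smooth muscle protein smoothelin on the other side, had 6.19 and 7.71 FPKM, against 12.8 FPKM in the control (change −0.85, adjusted p 0.0935).

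ERINA lies in a gene-poor stretch, and its nearest coding genes were closer to their control level. SEMA6A, a semaphorin gene 840.6 kb away, had 3.85 and 4.08 FPKM with the hairpins, against 4.10 FPKM in the control (limma adjusted p 0.853). DTWD2, a tRNA-modifying enzyme gene 1291 kb away, had 4.78 and 5.75 FPKM, against 6.74 FPKM in the control (change −0.33, adjusted p 0.258).

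The order of the 8 levels differed between the libraries for ERINA and for several of the other genes below MALAT1 and DSCAM-AS1. With shRNA1 the order from the top was MALAT1, DSCAM-AS1, NEAT1, GATA3-AS1, TUG1, HOTAIR, H19 and ERINA. With shRNA2 it was MALAT1, DSCAM-AS1, GATA3-AS1, TUG1, NEAT1, ERINA, H19 and HOTAIR. In the control it was MALAT1, DSCAM-AS1, ERINA, TUG1, H19, GATA3-AS1, NEAT1 and HOTAIR. ERINA stood at place 8 with shRNA1 and 6 with shRNA2, against 3 in the control. Many neighbours in these orders did not differ beyond their intervals. The intervals of GATA3-AS1, TUG1 and NEAT1 overlapped in every library, those of ERINA, H19 and HOTAIR overlapped in the hairpin libraries, and those of DSCAM-AS1 and ERINA overlapped in the control.

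The hairpin libraries were close to each other for most of the 8 genes. The absolute log2 change was larger with shRNA1 in 7 of 8, all but GATA3-AS1, and the same held for 68.47% of the 11149 tested genes that lay on the same side of the control with both hairpins and for 63.0% of such lncRNA genes. The largest gaps between the hairpins were −0.72 for ERINA, 0.56 for NEAT1 and −0.33 for GATA3-AS1 (shRNA1 minus shRNA2), and the smallest 0.05 for HOTAIR and −0.05 for MALAT1. For each of the 8 genes the deposited intervals of the hairpin libraries overlapped, so no gene showed a difference between the hairpins beyond that error. Taking each hairpin alone against the control, ERINA and H19 were at least 2-fold lower with shRNA1, as 3.27% of tested genes were, and DSCAM-AS1 and HOTAIR at least 2-fold higher, as 2.55% were. With shRNA2, ERINA and H19 again were at least 2-fold lower (1.7% of tested genes), and 0 of the 8 were at least 2-fold higher (1.79%). Apart from ERINA, the target of the hairpins, H19 alone was thus at least 2-fold lower.

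**Figure D3:**
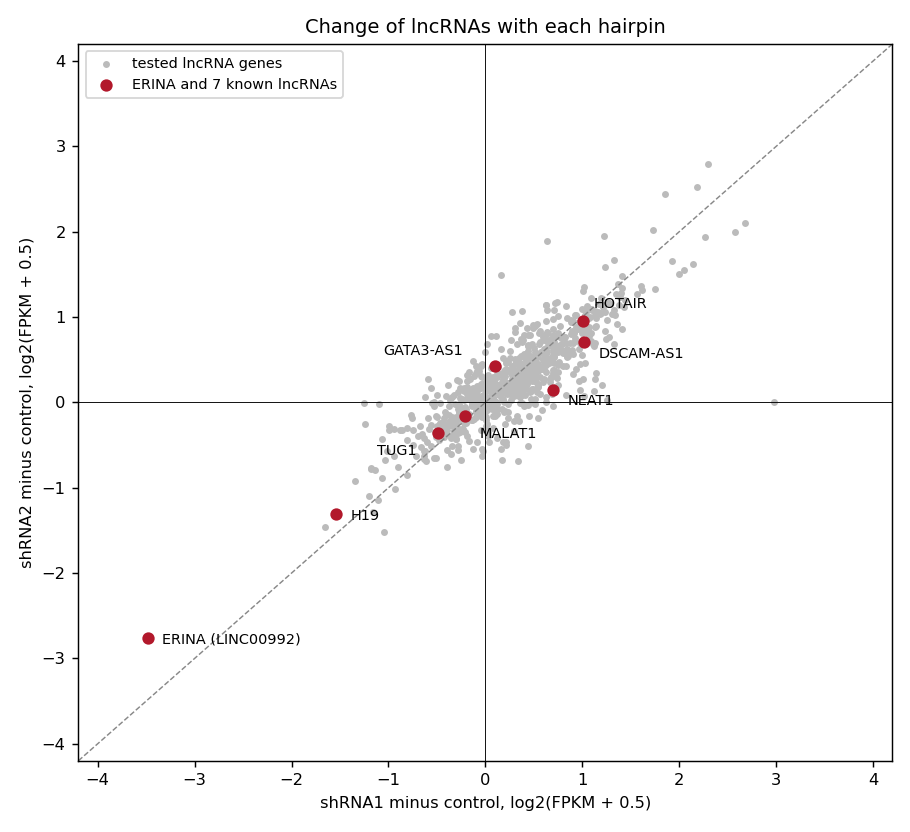
Change against control on the log2(FPKM + 0.5) scale with shRNA1 (horizontal axis) and shRNA2 (vertical axis); grey points are 810 of the 813 tested lncRNA genes (3 lie outside the axes), red points the 8 named lncRNAs, and the dashed line marks equal change. Of the points drawn, ERINA lies farthest to the lower left at −3.48 and −2.76, and DSCAM-AS1 and HOTAIR lie near 1 on the shRNA1 axis; both axes use the same control library.

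The genes whose pair of changes was nearest to that of ERINA were searched among 12993 genes with values above 0 and status OK in every library. Likeness was the Euclidean distance between the log2 changes with the 2 hairpins, over these 3 libraries. Among the 5 nearest were PLCB1, a phospholipase C gene (distance 0.743), GINS2, a subunit of the replicative helicase (0.909), MYBL2, a cell cycle transcription factor (0.932), and CTD-2116N17.1 (1.20). MYBL2 had 6.53 and 8.01 FPKM with the hairpins, against 43.3 FPKM in the control, and GINS2 had 6.18 and 7.46 FPKM, against 41.5 FPKM in the control. PLCB1 had 10.5 and 10.2 FPKM, against 73.0 FPKM in the control, but its deposited control interval started at 0, as did that of CTD-2116N17.1. No lncRNA gene was among these 5, and the match over 2 changes with a shared control is a description only.

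Other lncRNAs known from cancer were read beside the 8. Of 57 listed names, 55 were found in the table, 12 of these were listed at 0 in every library, 19 were above 0 but below the level tested, and 24 were tested. None of the 24 passed limma with Benjamini-Hochberg adjustment, and their adjusted p-values ran between 0.0829 and 0.938. With both hairpins 8 lay below the control and 12 above it, and 4 differed between the hairpins, with a median log2 change of 0.11. Over all tested genes, 42.6% lay below the control with both hairpins and 42.4% above it. Among the 813 tested lncRNA genes, 185 lay below it with both and 496 above it.

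The largest decreases among them were those of TINCR, an RNA of epidermal differentiation, NKILA, an inhibitor of NF-kB signalling, LINC00152, also called CYTOR, and PVT1. TINCR had 2.73 and 2.501 FPKM with the hairpins, against 6.44 FPKM in the control (limma change −1.15, adjusted p 0.0829, and 0.00912 without the short genes). The changes of NKILA, LINC00152 and PVT1 were −0.55, −0.30 and −0.26 (limma adjusted p 0.297, 0.174 and 0.217). The deposited intervals of NKILA and PVT1 started at 0 in every library. That of PVT1 in the control ran up to 3420000 FPKM, so its decrease cannot be read from these values. The largest increases were those of TP53TG1, a p53-induced RNA, LINC-PINT, JPX, an activator of X inactivation, and LINC01089. TP53TG1 had 21.5 and 18.02 FPKM, against 9.49 FPKM in the control (change 1.01, limma adjusted p 0.0831, and 0.00710 without the short genes). LINC-PINT, JPX and LINC01089 had changes of 0.72, 0.65 and 0.59 (limma adjusted p 0.245, 0.0867 and 0.105). The deposited intervals of LINC-PINT and LINC01089 started at 0 in every library. Without the short genes, limma passed TINCR as lower and CRNDE, TP53TG1, JPX and LINC01089 as higher, 5 of the 23 still tested. Over all genes of an annotated lncRNA type in that fit, 21 of 797 passed as lower and 149 as higher. TINCR is annotated as protein-coding and is not among the 797. The count of higher genes is read as no more than that of the class. No decrease among the 24 was as large as that of ERINA or H19.

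The most abundant of these other RNAs were ZFAS1, GAS5, NORAD and CRNDE, all below MALAT1 in every library. ZFAS1 had 394 and 412 FPKM with the hairpins, against 417 FPKM in the control. GAS5, a host of small nucleolar RNAs, had 351 and 356 FPKM, against 303 FPKM in the control, and NORAD, a decoy of PUMILIO proteins, 125 and 128 FPKM, against 112 FPKM in the control. CRNDE had 46.4 and 48.0 FPKM, against 36.1 FPKM in the control. Of the 8, MALAT1 alone was above ZFAS1.

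**Figure D4:**
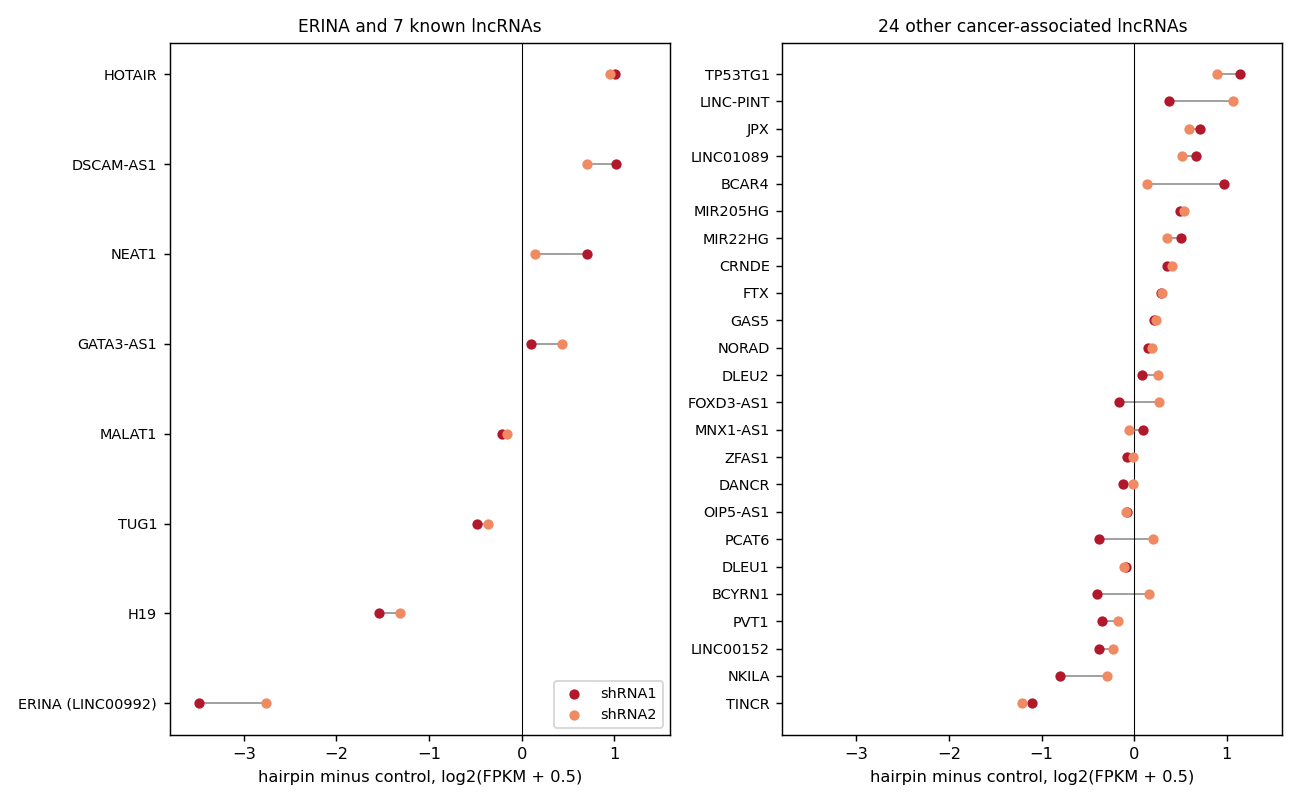
Change against control on the log2(FPKM + 0.5) scale (horizontal axis) with shRNA1 and shRNA2, joined by a line for each gene, for the 8 lncRNAs (left) and the 24 other tested cancer-associated lncRNAs (right), both panels on the same axis and sorted by the mean change. ERINA at −3.48 and −2.76 stands far left of every other gene drawn, and H19 comes next at −1.54 and −1.31.

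Proteins that work with these RNAs were read as 4 lists, and no gene of any list passed limma with Benjamini-Hochberg adjustment. Over all tested genes, 42.6% were below the control with both hairpins and 42.4% above it. Without the short genes, limma passed 9.88% of 12818 genes as lower and 7.37% as higher. Of 12 paraspeckle proteins, which assemble on NEAT1, 5 were below the control with both hairpins, 5 above it and 2 differed, with a median change of −0.01. NONO, a core paraspeckle protein, had 76.3 and 95.7 FPKM with the hairpins, against 140 FPKM in the control (change −0.71, adjusted p 0.101). PSPC1, its partner of the same family, had 54.6 and 54.5 FPKM, against 38.9 FPKM in the control (change 0.48, adjusted p 0.0844). Limma called NONO lower and PSPC1 higher once the short genes were left out, with adjusted p-values of 0.0170 and 0.0180.

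The next list held 12 genes, nuclear speckle proteins and ELAC2. Of these, 4 were below the control with both hairpins (42.6% of all tested genes) and 8 above it (42.4%). Their median change was 0.17. SRSF2, a splicing factor of the speckles where MALAT1 resides, had 106 and 94.0 FPKM, against 71.7 FPKM in the control (change 0.47, limma adjusted p 0.101, and 0.0252 without the short genes). SRSF1, a splicing factor of the same family, also passed as higher in that limma fit (adjusted p 0.0381), as 7.37% of its genes did. SRSF4, of the same family, had 12.3 and 10.02 FPKM, against 16.3 FPKM in the control (change −0.53, limma adjusted p 0.138, and 0.0519 without the short genes). Of 9 subunits of the complexes linked to HOTAIR, PRC2 and the LSD1 and CoREST complex with REST, 5 were below the control with both hairpins, 3 above it and 1 differed. RCOR1, the CoREST subunit, had 7.77 and 9.79 FPKM, against 15.0 FPKM in the control (change −0.75, limma adjusted p 0.103, and 0.0241 without the short genes). SUZ12 of PRC2 had the largest increase of that list, 0.10, and EZH2, its methyltransferase, had 10.6 and 11.1 FPKM, against 11.8 FPKM in the control.

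Of 5 proteins linked to H19 or DSCAM-AS1, 3 were tested. IGF2BP2, an RNA-binding protein that binds H19, had 4.09 and 4.10 FPKM with the hairpins, against 6.88 FPKM in the control (change −0.68, limma adjusted p 0.0905, and 0.0277 without the short genes). HNRNPL, reported to bind DSCAM-AS1, had 215 and 228 FPKM, against 245 FPKM in the control (change −0.15, limma adjusted p 0.321, and 0.299 without the short genes). No tested gene of the 4 lists differed from the control by as much as ERINA, H19, HOTAIR or DSCAM-AS1 did on the log2 scale.

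The libraries matched their label as luminal breast cells. All 8 luminal markers were expressed, between 16.5 and 5210 FPKM, and ESR1, the estrogen receptor gene, had 16.5 and 17.96 FPKM with the hairpins, against 16.8 FPKM in the control. No luminal marker passed limma with Benjamini-Hochberg adjustment over all tested genes. Of the 8 luminal markers, 2 (KRT8 and GATA3) were below the control with both hairpins, 3 were above it and 3 differed. Their median log2 change was 0.008. The 3 above it were PGR, FOXA1 and KRT19, a hormone receptor, a luminal factor and a keratin, with changes of 0.39, 0.50 and 0.58. Without the short genes, limma passed 7.37% of 12818 genes as higher. These 3 were among them, with adjusted p-values of 0.0329, 0.0147 and 0.0443. The part of these markers in the values of the 8 lncRNAs was not tested. The 10 markers of other cell types summed to 1.85 and 2.40 FPKM with the hairpins, against 2.42 FPKM in the control, and CD3E was at 0 in all 3. The highest of them was TP63, at up to 1.63 FPKM. These are bulk samples, in which fewer cells of a kind and less RNA per cell cannot be told apart. Total FPKM was 860240 with shRNA1 and 808451 with shRNA2, against 790290 in the control. The table holds no counts. From the value that 1 fragment gives in genes with 1 transcript, the depth came to about 28000000 and 28300000 fragments in the hairpin libraries and 26900000 in the control, before any correction for effective length.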

How the data were processed

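RNA sequencing of T47D cells was read from a table of FPKM that the authors deposited, 1 column per library, and confidence bounds below and above every value, per the file headers. Each value also has an other, non-numeric status column that the authors deposited. It read OK for all 8 lncRNAs, and 4 tested genes had another status in some library. The confidence level of the bounds is not stated in the sources. They describe the quantification error of a single library. The submitters' processing notes name STAR, RSEM and GRCh38 without versions or roles. Scaling between libraries and the annotation release were not given in the sources used here.

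GENCODE release 29 held 57435 of the 58039 gene identifiers (98.96%). No gene is listed as ERINA, and 1 RefSeq symbol, LINC00992, has that synonym. The 13112 genes that averaged 1 FPKM or more were put on the log2(FPKM + 0.5) scale and tested with limma 3.58.1 (R 4.3.3; trend, Benjamini-Hochberg, threshold 0.05) on all 3 libraries. The p-values rest only on the spread between the 2 hairpin libraries, which limma shares across the tested genes. That spread may be technical or may hold differences between the hairpins, and these were not separated. The script that runs the fit was tested on simulated data for the sign and size of known changes only. No 2 libraries shared a nonzero value (0 genes in each pair). The depth estimate takes the commonest ratio of implied SD to FPKM as 1 fragment. Genes at the next 2 ratios gave 1.91 to 1.97 times and 2.8 to 3.0 times the value of 1 fragment, near the 2 and 3 that whole fragments would give.

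The 8 lncRNAs and all gene lists were chosen with earlier results of these data known. Named genes were all 8, their locus partners, and for each list the largest changes and highest levels, and the 5 genes nearest to ERINA. Some genes that this rule names are not reported here. Alternatives were pseudocounts of 0.1 and 1, no filter and a mean of at least 5 FPKM, limma without trend or robust, 2 rescalings, short genes (no transcript of 300 nt) left out, and each hairpin alone. Plots were drawn with matplotlib 3.10.9 and tables made with pandas 2.3.3 and numpy 2.4.6 in Python 3.11.15.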

Additional observations from a re-analysis of the deposited data

How the results depend on the processing

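All 8 lncRNAs kept their direction under every alternative run, and no result reversed. The adjusted limma p-value was below the threshold in some alternative for 5 of them, and above it for all 8 as reported. ERINA had −3.124 (0.0374) in the robust fit, −3.199 (0.0309) with equal total FPKM, −3.077 (0.0225) with equal medians and −3.124 (0.00336) without short genes. H19 had −1.429 (0.0215), −1.503 (0.0400), −1.381 (0.0235) and −1.429 (0.00408) in the same 4 fits. DSCAM-AS1 had 0.8622 (0.0385) in the robust fit, 0.9097 (0.0424) with equal medians and 0.8622 (0.0098) without short genes. HOTAIR had 0.9812 (0.0320), 1.029 (0.0346) and 0.9812 (0.0098) in those 3 fits. TUG1 had −0.4242 (0.0461) without short genes. Over the 10 fits the adjusted p ran from 0.00336 to 0.234 for ERINA, 0.00408 to 0.227 for H19, 0.0098 to 0.271 for DSCAM-AS1, 0.0098 to 0.227 for HOTAIR and 0.0461 to 0.257 for TUG1. MALAT1 (0.193 to 0.393), NEAT1 (0.201 to 0.618) and GATA3-AS1 (0.237 to 0.599) stayed above the threshold in all 10.

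The limma count of lower genes, 35 as reported, was 0 with no filter, 595 in the robust fit, 111 with equal totals, 473 with equal medians and 1266 without short genes. For higher genes, 11 as reported, it was 0, 430, 65, 454 and 945, and 6 without trend. With no filter, limma put 2926 genes lower and 2113 higher at the threshold before adjustment. Genes clear above the control interval were 11 as reported, 6 at a mean of at least 5 FPKM and 17 with no filter. Genes at least 2-fold higher with shRNA2 were 235 as reported and 156 with a pseudocount of 1. The cause of these shifts was not tested, apart from the smaller or larger set of genes that a filter itself makes. Equal totals moved the median change by −0.115 with shRNA1 and −0.0288 with shRNA2.

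Each hairpin alone, a value with no test, gave −3.484 and −2.765 for ERINA, −1.545 and −1.313 for H19, −0.487 and −0.361 for TUG1, and −0.212 and −0.160 for MALAT1. It gave 1.019 and 0.705 for DSCAM-AS1, 1.006 and 0.957 for HOTAIR, 0.703 and 0.139 for NEAT1, and 0.0967 and 0.432 for GATA3-AS1 (shRNA1 first, then shRNA2). Leaving out the control leaves no comparison, and no count of limma calls exists for a single hairpin, only the 2-fold counts. No paired analysis was possible because the single control shares a number with at most 1 hairpin library. The wide deposited intervals limit what can be said of HOTAIR, NEAT1 and MALAT1.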
